A study of Homo sapiens with 22 samples.

Results

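The EGF receptors and ligands are a family of growth factors and receptor tyrosine kinases, and 9 of them were followed here by gene symbol: the receptors EGFR, ERBB2 and ERBB3 and the ligands AREG, EREG, EPGN, BTC, HBEGF and TGFA. These 9 were taken from 64727 gene names over 4 gene-level RNA tables, all were present in every table, and all passed the filter on low values in each comparison. The cells were HN-6, an established human line from head and neck squamous cell carcinoma, sequenced as poly(A) RNA in stranded libraries. There were 22 libraries in 8 groups, and every library, controls included, came from cells held in interferon-β (1000 U/ml) for the last 24 h. The lysine methyltransferase SMYD3 was reduced by 3 routes. The first was a single knockout clone, 5-3, set against the parental HN-6 line with 3 libraries each. The second was the siRNA si1SMYD3 set against the control siRNA siNC with 3 libraries each. The third was the antisense oligonucleotide ASO 081, set against PBS with 2 libraries each. In a further set UHRF1, which helps to copy DNA methylation after replication, was knocked down with siUHRF1 and compared with siNC libraries of its own, 3 each. Transfection or oligonucleotide exposure lasted 72 h. As the knockout is 1 clone, a difference between clones cannot be told apart from an effect of the knockout. No group lacked interferon-β, so nothing below describes the response to it.

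The ligands are made as membrane-anchored precursors that metalloproteases such as ADAM17 and ADAM10 cut free. A released ligand binds a receptor, which dimerises and signals through adaptors and RAS to the kinase ERK. EGFR binds all of the ligands listed here, ERBB2 has no known soluble ligand of its own and acts as a partner, and ERBB3 has little kinase activity and binds neuregulins. In squamous epithelium EGFR is abundant, its ligands are made by the same cells, and ERK activity in turn raises several of the ligand genes.

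EPGN, EREG, AREG and BTC lie next to each other on chromosome 4 in the hg38 coordinates that the authors deposited with the ASO counts. EPGN spans chr4:74308473-74315307, EREG chr4:74365145-74388749 and AREG chr4:74445136-74455005, all on the plus strand, and BTC spans chr4:74744759-74794523 on the minus strand. The long noncoding genes AC021180.1 and AC239584.1 lie between EREG and BTC, on the minus strand. The other members are apart: EGFR at chr7:55019017-55211628 and ERBB2 at chr17:39687914-39730426 on the plus strand, ERBB3 at chr12:56076799-56103505 on the plus strand, HBEGF at chr5:140332843-140346603 and TGFA at chr2:70447284-70554193 on the minus strand. In GENCODE on GRCh38 the start of ERBB2 overlaps PGAP3 and its end overlaps MIEN1, both on the opposite strand, and EGFR holds EGFR-AS1 on the opposite strand. On the same strand, ERBB2 overlaps MIR4728, ERBB3 overlaps the protein-coding gene AC034102.2 and TGFA overlaps TGFA-IT1. Whether the counting used strand is not given in the sources used here, and strand alone would not separate the same-strand pairs. Reads of these overlapping genes may therefore not have been separated.

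The 250 bases before the start site are shown for the 4 neighbouring ligands. These 4 genes were called higher in the knockout clone and lower after UHRF1 siRNA, and so were EGFR and HBEGF. The sequences are reference sequence from RefSeq (GRCh38.p14), 5′ to 3′ on the gene's strand. AREG is chr4:74444886-74445135 and EREG chr4:74364895-74365144 on the plus strand, EPGN is chr4:74308220-74308469 on the plus strand, and BTC is chr4:74794524-74794773 on the minus strand. Capitals mark the letters TGACG, the core of a cAMP response element, in AREG its full palindrome TGACGTCA, and the letters TATAAA of a TATA box.
AREG: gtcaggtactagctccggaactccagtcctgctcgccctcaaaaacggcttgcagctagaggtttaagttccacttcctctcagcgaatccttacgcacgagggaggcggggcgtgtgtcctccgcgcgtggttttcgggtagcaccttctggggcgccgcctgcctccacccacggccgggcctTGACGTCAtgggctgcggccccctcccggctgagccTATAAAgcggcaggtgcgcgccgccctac
EREG: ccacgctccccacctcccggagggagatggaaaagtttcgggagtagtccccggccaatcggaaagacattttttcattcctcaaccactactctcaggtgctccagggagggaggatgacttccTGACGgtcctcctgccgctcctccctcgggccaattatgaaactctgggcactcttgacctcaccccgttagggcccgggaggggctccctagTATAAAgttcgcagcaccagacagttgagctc
EPGN: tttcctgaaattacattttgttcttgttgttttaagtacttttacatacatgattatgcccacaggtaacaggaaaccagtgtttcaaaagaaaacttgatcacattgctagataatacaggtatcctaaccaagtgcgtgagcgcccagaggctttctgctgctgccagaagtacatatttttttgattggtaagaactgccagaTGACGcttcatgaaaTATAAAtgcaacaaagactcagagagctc
BTC: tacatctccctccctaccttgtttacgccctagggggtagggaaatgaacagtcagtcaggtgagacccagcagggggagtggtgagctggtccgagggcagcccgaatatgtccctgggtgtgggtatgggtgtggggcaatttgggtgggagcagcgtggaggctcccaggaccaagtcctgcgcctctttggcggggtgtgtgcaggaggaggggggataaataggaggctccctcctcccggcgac

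Each motif was searched on both strands over 35116 promoters of the same length, and a match is a description of the letters only. Besides the capitalised letters, AP-1-like letters (TGANTCA, with any base at N), a TEAD site and an interferon-stimulated response element were searched. They were in 6.57%, 11.9% and 3.02% of promoters, in that order. The palindrome TGACGTCA began 65 bases before the AREG start site and was in 1.65% of promoters. The shorter TGACG began 125 bases before the EREG start site and 44 bases before that of EPGN, and was in 21.2% of promoters. TATAAA began 29, 32 and 29 bases before the starts of AREG, EREG and EPGN, and was in 10.7% of promoters. No match to these letters was found in the BTC window. The AREG window held 23 CpG dinucleotides, EREG 11, BTC 8 and EPGN 3, against a median of 11 over all promoters. Outside the chromosome 4 group, TGACG began 154 bases before the start in the upstream of the TGFA entries, with 27 CpGs. TATAAA began 146 and 36 bases before the start in the downstream EGFR entry, with 1 CpG. The windows of HBEGF with 33 CpGs and ERBB2 with 23 held neither TGACG nor TATAAA. Nor did the upstream EGFR entry with 25 and the downstream TGFA entry with 20. AP-1-like letters began 232 and 136 bases before the start in the downstream EGFR entry, reading TGAGTCA and TGACTCA. Those that began 222 bases before the ERBB2 start read TGATTCA, with T at the open base. A TEAD site began 175 bases before the EREG start and 114 bases before that of the downstream EGFR entry. The members' windows held no other AP-1-like match or TEAD site and no interferon-stimulated response element. A sequence was matched for 8 of the 9 members, all but ERBB3.

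The targeted genes were lower in each library labelled as depleted. In the knockout table, values are the authors' normalized counts, reads divided by 1 factor per library. SMYD3 had 343, 309 and 314 normalized counts in the parental libraries and 113, 91.5 and 76.3 in the clone. In the other tables, values are CPM, reads scaled to library size by the trimmed mean of M-values (TMM). SMYD3 was 16.6, 13.2 and 15.5 CPM with control siRNA against 2.61, 2.98 and 2.95 with si1SMYD3, and 22.0 and 21.1 with PBS against 4.19 and 3.28 with ASO 081. UHRF1 was 66.4, 63.0 and 64.1 CPM with control siRNA against 1.88, 2.69 and 2.10 with siUHRF1. Each depletion left the other gene changed too. UHRF1 fell with si1SMYD3 (log2 fold change -1.68 ± 0.14 SE) and rose in the clone (0.44 ± 0.03) and with ASO 081 (0.36 ± 0.06), and SMYD3 fell with siUHRF1 (-0.57 ± 0.09). All 4 had adjusted p-values under 0.05 in limma or edgeR.

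Total reads in genes ran from 24777802 to 62921144 per library. Mitochondrially encoded genes took 15.0% to 15.7% of reads in the parental libraries, 4.83% to 4.89% in the clone and 5.73% to 10.2% in the SMYD3 siRNA set, and they held 0 reads in the other sets. Marker sums are CPM of the library total, without TMM factors. The 9 squamous epithelial markers, among them keratins, TP63 and EPCAM, summed to between 1553 and 4681 CPM per library and none was at 0 in any library. The sum was 1553 to 1606 CPM in the parental libraries and 2622 to 2728 in the clone. Single markers differed widely in TMM-scaled mean. EPCAM was 1202 CPM and ITGA6 1003 in the UHRF1 controls, against 32.1 for KRT17. KRT14 was 0.735 CPM with the SMYD3 set's control siRNA and 0.327 with si1SMYD3, and KRT6A was 3.14 with PBS. Leukocyte markers summed to at most 15.7 CPM and endothelial markers to at most 23.4. Fibroblast markers summed to 490.5 to 560.0 CPM with siUHRF1, most of it COL1A1, against 122 in its controls, and to 14.8 to 16.9 in the clone against 62.7 to 66.7 in the parental line. With si1SMYD3 they summed to 218.6 to 246.4 CPM against 143.4 to 164.2 in its controls. With ASO 081 they summed to 91.9 to 110.3 against 120.6 to 124.5 with PBS. Their part in the results below was not tested. In bulk RNA, fewer cells of a kind and less RNA per cell cannot be told apart. The study describes biological replicates without saying how they were separated, so p-values measure the spread between these libraries.

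**Figure D1:**
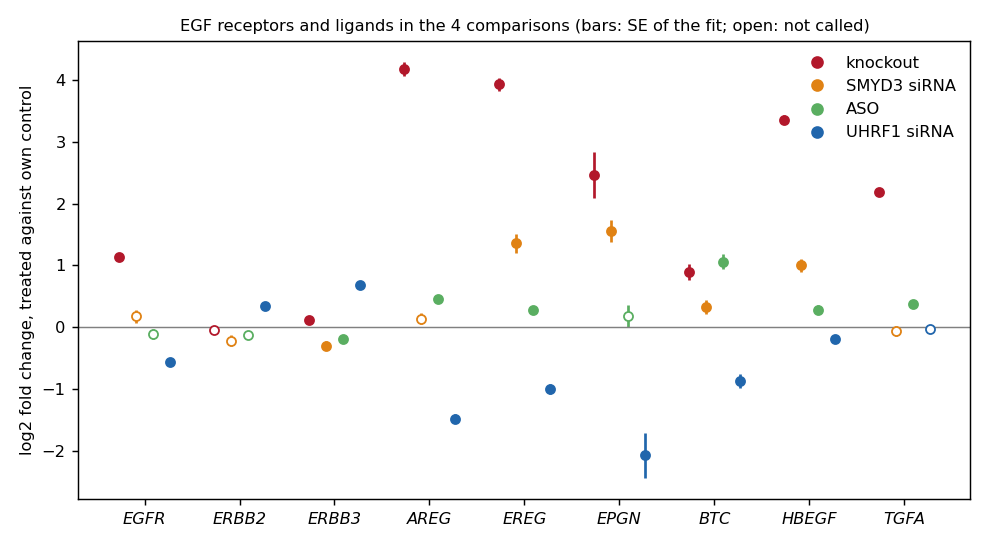
Log2 fold change (treated against own control) of the 9 members in the 4 comparisons, with bars for the standard error of the fit and open symbols for members that were not called. The knockout values of AREG (4.18) and EREG (3.93) stand highest, and all 4 chromosome 4 ligands lie below 0 after UHRF1 siRNA.

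In the knockout clone, all 6 ligands and the receptors EGFR and ERBB3 were called higher, at an adjusted p below 0.05 in limma, and no member was called lower. That is 8 of 9 members higher, in a comparison in which 84.6% of 16947 genes were called, 42.1% higher and 42.5% lower. With upper quartile scaling of the recovered reads 37.1% of the calls were higher, against 49.7% here, the median gene stood at -0.31 on the log2 scale instead of -0.02, and 7 members were higher and 2 lower. The members' median log2 fold change was 2.19. The si1SMYD3 libraries had 4 members higher and 1 lower, where 48.6% of 18965 genes were called, 24.2% higher and 24.4% lower. ASO 081 had 5 higher and 1 lower, where 21.7% of 18233 genes were called, 11.3% higher and 10.3% lower. After siUHRF1 2 members were higher and 6 lower, where 64.7% of 18349 genes were called, 32.0% higher and 32.7% lower. Called changes of at least 1 on the log2 scale were reached by 6 members in the clone (36.5% of all genes), 3 with si1SMYD3 (7.85%), 1 with the ASO (1.55%) and 3 after siUHRF1 (17.8%). EREG, BTC and HBEGF were called higher in all 3 SMYD3 comparisons and lower after UHRF1 siRNA. The share of all genes with this joint pattern was not computed. The calls of EREG and HBEGF with the ASO, BTC with si1SMYD3 and HBEGF after siUHRF1 were each lost under some alternative, as given below. Members' medians were 0.18 with si1SMYD3, 0.27 with ASO 081 and -0.56 with siUHRF1, and the medians of all genes lay between -0.02 and 0.00.

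EGFR, the receptor that binds these ligands, rose in the knockout clone and fell after UHRF1 siRNA. The parental libraries had 90392, 94351 and 90789.9 normalized counts of EGFR and the clone had 194347, 221086 and 194188.5. The groups did not overlap, as in 85.8% of all genes in this comparison, and EGFR rose by 1.14 ± 0.05 on the log2 scale (limma adjusted p = 1.23e-09), 2.21-fold. With siUHRF1 the values were 10669.6, 10359 and 10661.6 CPM against 15058, 15791 and 16002 in the controls, with no overlap, as in 68.1% of genes. EGFR fell by 0.56 ± 0.05 on the log2 scale there (edgeR adjusted p = 2.78e-14). It was the gene with the most reads in all 6 libraries of the UHRF1 set, with 1.55% to 1.65% of reads in the controls and 1.02% to 1.04% with siUHRF1. Elsewhere its share was 0.278% to 0.623%. Mitochondrially encoded genes held 0 reads in the UHRF1 and ASO sets, and count in the ranks and totals of the other sets.

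EGFR did not pass the test after the shorter SMYD3 depletions. With control siRNA it was 3322, 2871 and 2687 CPM, and with si1SMYD3 3311, 3420.3 and 3337, so that control replicate 1 lay within the treated range (log2 fold change 0.18 ± 0.10, edgeR adjusted p = 0.168). PBS gave 4169 and 4716 CPM and ASO 081 gave 3754 and 4495, which overlap (-0.11 ± 0.09, adjusted p = 0.416). That value moved with single libraries. The log2 fold change was 0.02 without ASO replicate 1 and -0.24 without ASO replicate 2. It was -0.19 without PBS replicate 1 and -0.003 without PBS replicate 2. With the replicate number as a block in the fit, EGFR was called lower with the ASO (-0.11, edgeR adjusted p = 0.0239).

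ERBB2, the receptor with no soluble ligand of its own, did not pass the test in the SMYD3 comparisons and rose after UHRF1 siRNA. Parental libraries had 3691, 3689 and 3944 normalized counts and the clone 3642, 3528 and 3853, which overlap (log2 fold change -0.04 ± 0.04, limma adjusted p = 0.411). With upper quartile scaling the same gene was called lower (-0.32, edgeR adjusted p = 2.98e-06), close to the median gene of that fit. It was 201, 216 and 178 CPM with control siRNA and 155, 177 and 179.6 with si1SMYD3 (-0.22 ± 0.09, edgeR adjusted p = 0.0539), a value just short of the threshold that passed with upper quartile factors (adjusted p = 0.0207). PBS gave 194 and 212 CPM and ASO 081 186 and 185 (-0.13 ± 0.06, adjusted p = 0.139). With the replicate number as a block in the fit, ERBB2 was called lower with the ASO (-0.13, edgeR adjusted p = 0.00768) and with si1SMYD3 (-0.22, adjusted p = 0.0431). After siUHRF1 all 3 libraries, at 232, 216 and 216 CPM, lay above the controls at 175, 177 and 170.1 (0.35 ± 0.05, adjusted p = 1.22e-08).

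ERBB3, the neuregulin receptor, rose after UHRF1 siRNA and fell with si1SMYD3. The siUHRF1 libraries had 287, 267 and 277 CPM against 172, 176 and 172 (0.68 ± 0.05 log2, edgeR adjusted p = 5.28e-18). With si1SMYD3 it was 160.5, 157 and 162 CPM against 208, 194 and 189 (-0.30 ± 0.07, adjusted p = 0.00327), with no overlap. ASO 081 gave 145 and 158 CPM against 167 and 177 with PBS (-0.19 ± 0.06, adjusted p = 0.0478). That call was lost without ASO replicate 1 (-0.12, adjusted p = 0.235), without PBS replicate 2 (-0.13, adjusted p = 0.328) and in DESeq2 (adjusted p = 0.0851). In the clone it was 3265, 3381 and 3218 normalized counts against 3033, 2982 and 3038 in the parental line (0.12 ± 0.04, limma adjusted p = 0.00759), and this direction turned with upper quartile scaling (-0.15, edgeR adjusted p = 0.00119).

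**Figure D2:**
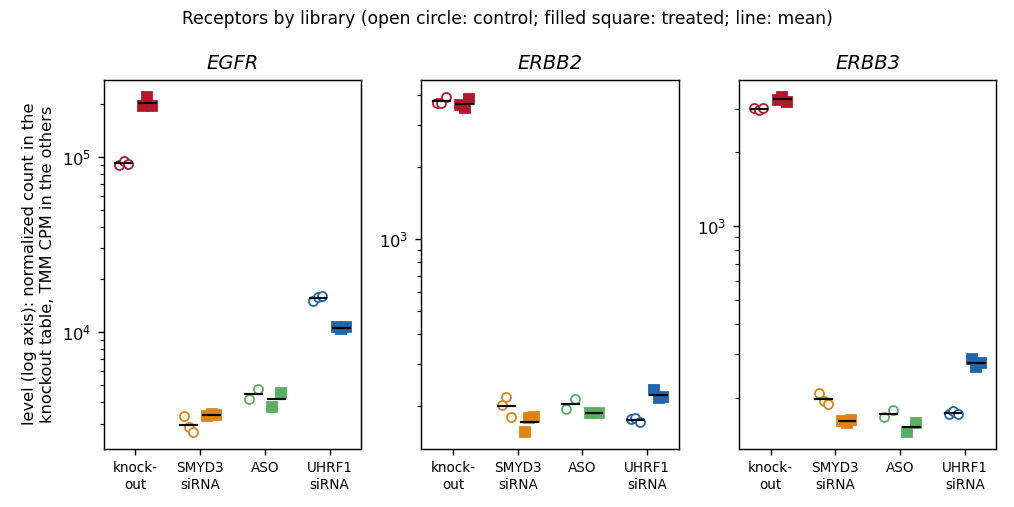
Level of EGFR, ERBB2 and ERBB3 in every library on a log axis, as normalized counts in the knockout table and TMM-normalized CPM in the others, with open circles for controls, filled squares for treated libraries and lines for group means. EGFR is higher in all 3 clone libraries and lower in all 3 siUHRF1 libraries than in any of their controls, and ERBB3 is higher with siUHRF1.

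AREG, amphiregulin, a keratinocyte autocrine factor of low affinity for EGFR, had the highest fold change of the 9 in the clone. It went from 321, 276 and 227 normalized counts in the parental libraries to 5109, 4851 and 4902. No clone library came near the parental range, and AREG rose by 4.18 ± 0.11 on the log2 scale (limma adjusted p = 5.97e-10), 18.1-fold, at percentile 99.7 of all genes tested. After siUHRF1 it was 29.6, 33.8 and 36.4 CPM against 82.6, 101.8 and 93.6, and fell by 1.48 ± 0.07 on the log2 scale (edgeR adjusted p = 4.49e-18).

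The ASO raised AREG by less and the SMYD3 siRNA did not move it past the threshold. With ASO 081 it was 122.5 and 115 CPM against 85.6 and 87.7 with PBS (0.46 ± 0.06 log2, edgeR adjusted p = 0.000137), which did not overlap, as in 61.7% of genes in that comparison. With si1SMYD3 it was 18.9, 20.1 and 20.5 CPM against 17.4, 16.9 and 19.7 (0.14 ± 0.09, adjusted p = 0.213), and control replicate 3 lay within the treated range.

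EREG, epiregulin, a ligand of EGFR and ERBB4, was called higher in each of the SMYD3 comparisons. It had 108, 146 and 117 normalized counts in the parental line and 1793, 2135 and 1754 in the clone (3.93 ± 0.11 log2, limma adjusted p = 6.96e-13), 15.3-fold. With si1SMYD3 it was 9.75, 9.77 and 8.86 CPM against 4.83, 3.23 and 2.97 (1.36 ± 0.15, edgeR adjusted p = 5.28e-06). The groups lay apart there, as in 56.8% of genes, although control replicate 1 stood above the other controls. ASO 081 gave 46.9 and 45.0 CPM against 37.1 and 39.0 (0.27 ± 0.06, adjusted p = 0.00800), a call lost without PBS replicate 1 (adjusted p = 0.0540). After siUHRF1 EREG was 9.72, 10.7 and 10.1 CPM against 18.9, 21.1 and 21.0, and fell by 1.00 ± 0.08 on the log2 scale (adjusted p = 3.39e-16).

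EPGN, epigen, was the lowest of the 6 ligands in each control group per kilobase of merged exons. Recovered reads in the parental libraries numbered 3, 16 and 13 and in the clone 45, 65 and 50. On the scale of the file this was 3.77, 14.1 and 11.0 normalized counts against 44.6, 48.4 and 63.6 (2.47 ± 0.38 log2, limma adjusted p = 2.05e-05). Parental replicate 1 was the lowest, and without it the log2 fold change was 1.97. With si1SMYD3 it was 3.28, 2.44 and 2.51 CPM against 0.913, 0.978 and 0.894 (1.56 ± 0.18, edgeR adjusted p = 6.39e-06), at percentile 99.1 of all genes. With ASO 081 it did not pass, at 2.47 and 2.58 CPM against 2.13 and 2.31 (0.18 ± 0.18, adjusted p = 0.505). The siUHRF1 libraries held 9, 20 and 14 reads against 68, 79 and 50, and EPGN fell by 2.07 ± 0.37 on the log2 scale (adjusted p = 2.36e-06).

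BTC, betacellulin, lies farther along the chromosome on the other strand and had the highest fold change of the 9 with the ASO. It was 10.4 and 9.21 CPM with ASO 081 against 4.74 and 4.65 with PBS (1.06 ± 0.12 log2, edgeR adjusted p = 6.12e-05), 2.08-fold. In the clone it had 159, 189.7 and 155 normalized counts against 87.9, 97.7 and 82.9 (0.90 ± 0.13, limma adjusted p = 1.04e-05). The si1SMYD3 value was smaller, at 17.2, 12.9 and 14.0 CPM against 11.9, 12.4 and 10.9 (0.33 ± 0.11, adjusted p = 0.0210). It was no longer called without si1SMYD3 replicate 1 (0.22, adjusted p = 0.0738) or without control replicate 3 (0.28, adjusted p = 0.0946). After siUHRF1 BTC was 4.36, 5.15 and 5.41 CPM against 8.38, 9.59 and 9.39, and fell by 0.87 ± 0.11 on the log2 scale (adjusted p = 6.00e-10).

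**Figure D3:**
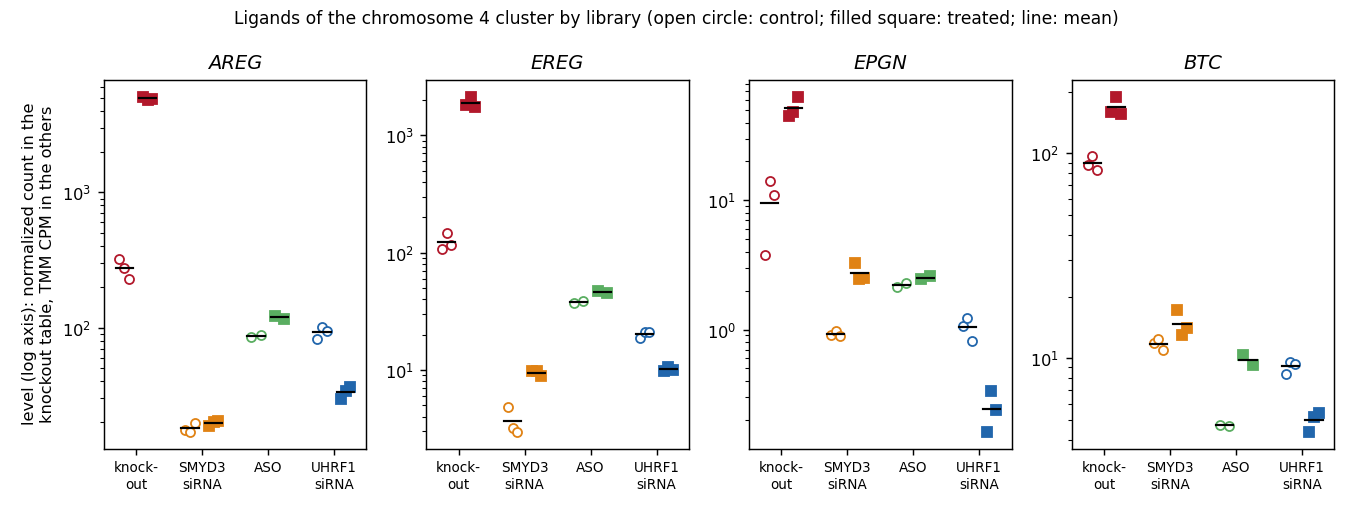
Level of the chromosome 4 ligands AREG, EREG, EPGN and BTC in every library on a log axis, as normalized counts in the knockout table and TMM-normalized CPM in the others, with open circles for controls, filled squares for treated libraries and lines for group means. All clone libraries lie above, and all siUHRF1 libraries below, every control library of the same set.

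HBEGF, heparin-binding EGF-like growth factor, which binds EGFR and ERBB4, was called higher in the 3 SMYD3 comparisons. It had 186, 160.2 and 179 normalized counts in the parental line and 1865, 1839 and 1720.0 in the clone (3.36 ± 0.07 log2, limma adjusted p = 4.55e-15), 10.3-fold. With si1SMYD3 it was 23.2, 29.6 and 26.4 CPM against 14.7, 11.6 and 13.1 (1.00 ± 0.11, edgeR adjusted p = 3.18e-06), with no overlap. ASO 081 gave 24.7 and 25.1 CPM against 20.8 and 20.1 (0.28 ± 0.07, adjusted p = 0.0141). The ASO call was lost in DESeq2 (adjusted p = 0.0749) and without PBS replicate 2 (adjusted p = 0.0622). After siUHRF1 the groups overlapped, at 37.4, 39.9 and 44.1 CPM against 45.1, 49.5 and 43.8 (-0.19 ± 0.06, adjusted p = 0.00550). That call was lost without siUHRF1 replicate 1 (-0.13, adjusted p = 0.0516) or control replicate 2 (-0.15, adjusted p = 0.0560).

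TGFA, transforming growth factor alpha, an EGFR ligand of epithelial cells, rose in the clone and with the ASO. It had 1576, 1746 and 1669.8 normalized counts in the parental line and 7468, 7867 and 7395 in the clone (2.19 ± 0.04 log2, limma adjusted p = 3.68e-15), 4.55-fold. ASO 081 gave 140.1 and 151 CPM against 108 and 116 (0.37 ± 0.06, edgeR adjusted p = 0.00103), with no overlap. The siRNA sets showed overlapping groups. These were 65.5, 72.8 and 66.7 CPM with si1SMYD3 against 76.7, 70.2 and 66.3 (-0.06 ± 0.08, adjusted p = 0.584), and 144, 161 and 159 with siUHRF1 against 156, 156 and 162 (-0.03 ± 0.05, adjusted p = 0.581).

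The 3 SMYD3 depletions differed from each other in the size of the ligand changes when the difference itself was tested. Against ASO 081, si1SMYD3 gave larger log2 fold changes for EPGN (difference 1.36 ± 0.26, edgeR adjusted p = 0.000497), EREG (1.07 ± 0.18, adjusted p = 0.000232) and HBEGF (0.70 ± 0.15, adjusted p = 0.00155). It gave smaller ones for BTC (-0.75 ± 0.18, adjusted p = 0.00290), TGFA (-0.45 ± 0.11, adjusted p = 0.00438) and AREG (-0.34 ± 0.11, adjusted p = 0.0267). All 6 ligands differed, in a contrast in which 35.1% of 19687 genes differed. The receptors did not pass: the differences were 0.27 ± 0.15 for EGFR, -0.11 ± 0.12 for ERBB2 and -0.13 ± 0.10 for ERBB3, which does not show that they changed alike.

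Differences from the knockout were taken on log2(CPM + 1), a scale that shrinks changes of low genes such as EPGN. CPM here is of the library total, without TMM factors. Mitochondrially encoded genes took 15% to 15.7% of that total in the parental libraries and 4.83% to 4.89% in the clone. On this scale ERBB3 was lower in the clone, at 92.0, 95.3 and 91.2 CPM against 97.5, 96.7 and 99.0 in the parental line. The clone exceeded si1SMYD3 for AREG by 3.83 ± 0.12 (limma adjusted p = 3.98e-14), for EREG by 2.38 ± 0.18, for TGFA by 2.15 ± 0.09 and for HBEGF by 2.13 ± 0.13. EGFR exceeded it by 0.89 ± 0.11 (adjusted p = 7.75e-07), BTC by 0.38 ± 0.15 and ERBB3 by 0.35 ± 0.08. ERBB2 and EPGN did not pass (adjusted p = 0.319 and 0.812), where 75.0% of genes differed. Against ASO 081 the clone was higher for AREG by 3.46 ± 0.12 (adjusted p = 1.17e-12), EREG by 3.25 ± 0.13, HBEGF by 2.76 ± 0.10, TGFA by 1.66 ± 0.07, EGFR by 1.12 ± 0.10, EPGN by 0.83 ± 0.17 and ERBB3 by 0.18 ± 0.06. BTC (-0.31 ± 0.14, adjusted p = 0.0615) and ERBB2 (-0.04 ± 0.07, adjusted p = 0.621) did not pass, where 76.1% of genes differed. The knockout side of each such contrast rests on 1 clone, and the tables were made separately.

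Of the rest of the family, EGF and the neuregulin NRG1 were each called in 3 comparisons. EGF, the founding ligand, rose with si1SMYD3 to 22.9, 21.7 and 21.5 CPM from 12.3, 11.6 and 11.3 (0.91 ± 0.08 log2, edgeR adjusted p = 8.08e-07). It fell in the clone (-0.28 ± 0.10, limma adjusted p = 0.0222) and after siUHRF1 (-0.33 ± 0.11, edgeR adjusted p = 0.00661), and did not pass with the ASO (-0.21 ± 0.09, adjusted p = 0.105). NRG1, a ligand of ERBB3 and ERBB4, rose in the clone from a mean of 378.6 normalized counts to 488.5 (0.37 ± 0.08, limma adjusted p = 0.000362). With upper quartile scaling 0 of the 3 genes tested from this rest of the family were called higher in the clone, so that call was lost. NRG1 fell with the ASO (-0.29 ± 0.10, edgeR adjusted p = 0.0487) and after siUHRF1 (-0.29 ± 0.09, adjusted p = 0.00599). ERBB4, the remaining receptor, did not pass with si1SMYD3 (0.59 ± 0.24, adjusted p = 0.0519) or with the ASO (-0.56 ± 0.30, adjusted p = 0.208), although the groups lay apart in both. Its mean was 0.866 CPM with si1SMYD3 against 0.571, and 0.577 with the ASO against 0.854. In the UHRF1 set it held 8 reads over the 3 control libraries and 22 with siUHRF1, too few to test. The knockout set gave no values for ERBB4, so it could not be compared there. NRG4, a neuregulin that binds ERBB4, fell in the clone (-4.01 ± 0.33, limma adjusted p = 1.97e-08), from a mean of 76.6 normalized counts to 4.15.

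Neighbours of the chromosome 4 ligands were followed in their order along the chromosome. Centromere-proximal to EPGN lie the neutrophil chemokine genes CXCL8, CXCL6, CXCL1, CXCL5, CXCL3 and CXCL2 and the folate enzyme MTHFD2L, and beyond BTC lie PARM1, RCHY1, THAP6 and G3BP2. The count of each list that follows stands beside the share of all genes called, which was 84.6% in the clone, 48.6% with si1SMYD3, 21.7% with the ASO and 64.7% after siUHRF1, in near equal parts higher and lower. Of 10 neighbours tested, 6 were higher and 2 lower in the clone (median 0.72), 8 higher and 0 lower with si1SMYD3 (0.63), 4 higher and 1 lower with the ASO (0.08) and 6 higher and 2 lower after siUHRF1 (0.25). CXCL8 rose by 3.20 ± 0.08 in the clone, 0.97 ± 0.11 with si1SMYD3 and 0.99 ± 0.15 with the ASO. CXCL2 rose by 0.86 ± 0.12, 1.79 ± 0.12 and 1.36 ± 0.11 in the same order. After siUHRF1 the 4 ligands fell, while CXCL3 (1.35 ± 0.10) and CXCL1 (0.72 ± 0.05) rose on one side of them and PARM1 (-1.46 ± 0.30) fell on the other. PARM1 also fell in the clone (-2.02 ± 0.49).

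**Figure D4:**
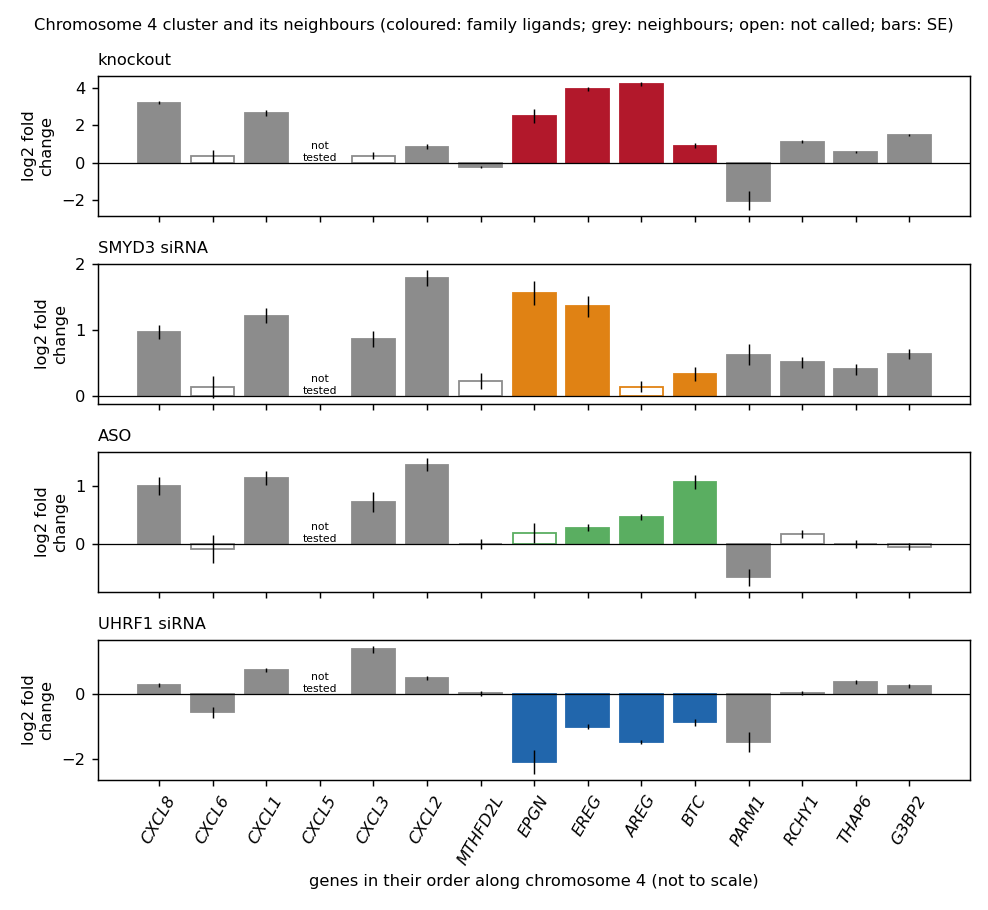
Log2 fold change of the 4 ligands (coloured) and 11 neighbours (grey) in their order along chromosome 4, not to scale, in each comparison, with bars for the standard error and open bars for genes that were not called. After UHRF1 siRNA the 4 ligands are below 0, with CXCL2 (0.48) and MTHFD2L (0.01) before them and PARM1 (-1.46) after them.

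Genes around EGFR and ERBB2 gave the local setting of the receptors. In the clone 5 of 6 tested neighbours of EGFR were higher and 0 lower (median 0.59), among them CCT6A, a chaperonin subunit (1.04 ± 0.03), PSPH, an enzyme of serine synthesis (0.83 ± 0.05), and LANCL2 (0.60 ± 0.07). EGFR itself stood at 1.14. After siUHRF1 4 of the 6 were lower and 0 higher (median -0.17), the lowest PSPH (-0.48 ± 0.07), against -0.56 for EGFR. With si1SMYD3 0 were higher and 2 lower, among them VOPP1 (-0.78 ± 0.08), and with the ASO 3 were higher and 0 lower. Of 9 tested neighbours of ERBB2 in the clone 4 were higher and 5 lower. PGAP3, which overlaps the ERBB2 start on the other strand, fell by 2.03 ± 0.09 on the log2 scale there, where ERBB2 stood at -0.04.

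Sheddases and their helpers showed a mixed pattern. Of 7 genes tested, 6 were higher and 1 lower in the clone (median 0.57), 4 higher and 1 lower with si1SMYD3 (0.39), 1 higher and 0 lower with the ASO (0.00) and 4 higher and 2 lower after siUHRF1 (0.56). ADAM17, the main sheddase of AREG, EREG, HBEGF and TGFA, rose with si1SMYD3 from a mean of 189 CPM to 299.9 (0.67 ± 0.08 log2, edgeR adjusted p = 5.86e-06). ADAM10, which cleaves BTC and EGF, fell there (-0.44 ± 0.08, adjusted p = 0.000517). ADAM12 rose in the clone (3.43 ± 0.12, limma adjusted p = 5.98e-13) and with si1SMYD3 (0.93 ± 0.24), and fell after siUHRF1 (-2.02 ± 0.09, edgeR adjusted p = 1.69e-26). FRMD8, a cofactor that stabilises the ADAM17 complex, was the one of these called with the ASO (0.49 ± 0.07, adjusted p = 0.000210).

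Among negative regulators of the receptors, LRIG1 and LRIG3 rose in the clone and fell after siUHRF1. Of 10 regulators tested, 7 were higher and 2 lower in the clone (median 0.94), where 42.1% and 42.5% of all genes were. With si1SMYD3 6 were higher and 1 lower (0.44), where 24.2% and 24.4% of all genes were. The counts were 0 higher and 2 lower with the ASO (-0.16) and 4 higher and 5 lower after siUHRF1 (-0.05). LRIG1, a membrane protein that promotes receptor degradation, rose in the clone (3.09 ± 0.18, limma adjusted p = 2.95e-10) and fell after siUHRF1 (-2.12 ± 0.13, edgeR adjusted p = 6.52e-21). Its relative LRIG3 did the same (1.67 ± 0.11 and -1.29 ± 0.08) and also rose with si1SMYD3 (1.03 ± 0.08). ERRFI1, a feedback inhibitor of the EGFR kinase, rose in the clone (1.36 ± 0.04). Among the ubiquitin ligases, CBL rose with si1SMYD3 (0.97 ± 0.10) and CBLC fell by 1.00 ± 0.10 on the log2 scale (edgeR adjusted p = 2.38e-06). With the ASO both fell, CBL by 0.28 ± 0.08 and CBLC by 0.28 ± 0.09 on the log2 scale, and CBLB rose after siUHRF1 (1.66 ± 0.09).

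Among adaptors and the RAS-ERK core, SHC1 was called higher in the clone, with si1SMYD3 and after siUHRF1. Of 16 genes tested, 11 were higher and 3 lower in the clone (median 0.49), a share called that is near the 84.6% of all genes. They were 7 higher and 1 lower with si1SMYD3 (0.14), 1 higher and 1 lower with the ASO (-0.03) and 10 higher and 5 lower after siUHRF1 (0.26), where 64.7% of all genes were called. GRB2, the adaptor between receptor and RAS, rose by 1.13 ± 0.04 in the clone. The adaptor SHC1 rose by 0.86 ± 0.05 there, by 0.55 ± 0.08 with si1SMYD3 and by 0.73 ± 0.05 after siUHRF1. The RAS exchange factor SOS1 rose after siUHRF1 (0.99 ± 0.05).

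Among transcripts that ERK activity induces, ETV5 and DUSP4 rose in the clone and DUSP6 fell after siUHRF1. Of 16 tested, 14 were higher and 2 lower in the clone (median 1.36), where 42.1% and 42.5% of all genes were. With si1SMYD3 5 were higher and 9 lower (-0.25), where 24.2% and 24.4% of all genes were. The counts were 7 higher and 1 lower with the ASO (0.16), against 11.3% and 10.3% of all genes, and 4 higher and 9 lower after siUHRF1 (-0.33), against 32.0% and 32.7%. ETV5, a transcription factor downstream of ERK, rose by 2.96 ± 0.06 in the clone and fell by 1.11 ± 0.14 with si1SMYD3. DUSP4, a phosphatase of ERK, rose by 2.84 ± 0.05 in the clone. FOS, an immediate early gene, went the other way from that list in the clone (-4.14 ± 0.05, limma adjusted p = 1.48e-17), from a mean of 44756 normalized counts to 2534, and fell with the ASO (-0.61 ± 0.09). ETV4 fell with si1SMYD3 (-1.99 ± 0.16, edgeR adjusted p = 1.87e-07). After siUHRF1 the feedback genes DUSP6 (-1.65 ± 0.06), PHLDA1 (-1.43 ± 0.05) and SPRY4 (-1.05 ± 0.08) fell. With the ASO, EPHA2 (0.47 ± 0.06) and FOSL1 (0.44 ± 0.06) rose. With upper quartile scaling the knockout medians of the sheddases, negative regulators, core and ERK-induced lists were 0.29, 0.67, 0.21 and 1.08, and those of the chromosome 4 and EGFR neighbours 0.44 and 0.31. These lists were drawn up with earlier results of the data known, so their counts are a description.

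To compare genes with each other, levels were expressed as reads per kilobase of merged exons scaled to the library total (RPKM). EGFR was the most abundant of the 9 in each control group, at 237 ± 6.23 RPKM (SD, n = 3) in the parental line, 247 ± 31.0 (n = 3) in the siNC libraries of the SMYD3 set, 362 ± 27.2 (n = 2) with PBS and 1278 ± 41.2 (n = 3) in the siNC libraries of the UHRF1 set. The control groups are all HN-6 cells with interferon-β, from tables made separately, so no test was made between them, and the library total holds mitochondrial reads only in the knockout and SMYD3 siRNA tables. In the PBS libraries the order below EGFR was AREG (53.9 RPKM), TGFA (23.3), ERBB2 (20.1), ERBB3 (19.4), HBEGF (6.99), EREG (6.81), BTC (1.81) and EPGN (1.25). ERBB2 and ERBB3 overlapped between libraries there, and so did HBEGF and EREG. In the UHRF1 control siRNA libraries the order was AREG (57.8), TGFA (32.9), ERBB3 (19.6), ERBB2 (17.3), HBEGF (15.8), EREG (3.65), BTC (3.52) and EPGN (0.586), with overlap between EREG and BTC.

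AREG stood lower in the other control groups, at 5.42 RPKM in the parental line and 11.5 in the siNC libraries of the SMYD3 set, where ERBB2, ERBB3 and TGFA exceeded it. In the parental line TGFA (11.0) overlapped both ERBB2 (11.8) and ERBB3 (10.8), which did not overlap each other, and AREG was followed by HBEGF (1.90), BTC (1.09), EREG (0.701) and EPGN (0.172). In the siNC libraries of the SMYD3 set ERBB3 (22.8) and ERBB2 (20.1) overlapped, TGFA was at 15.1, BTC (4.62) and HBEGF (4.59) overlapped, and so did EREG (0.675) and EPGN (0.535). By RPKM AREG ranked between 5649 and 6958 among all genes in the parental libraries and between 439 and 453 in the clone.

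**Figure D5:**
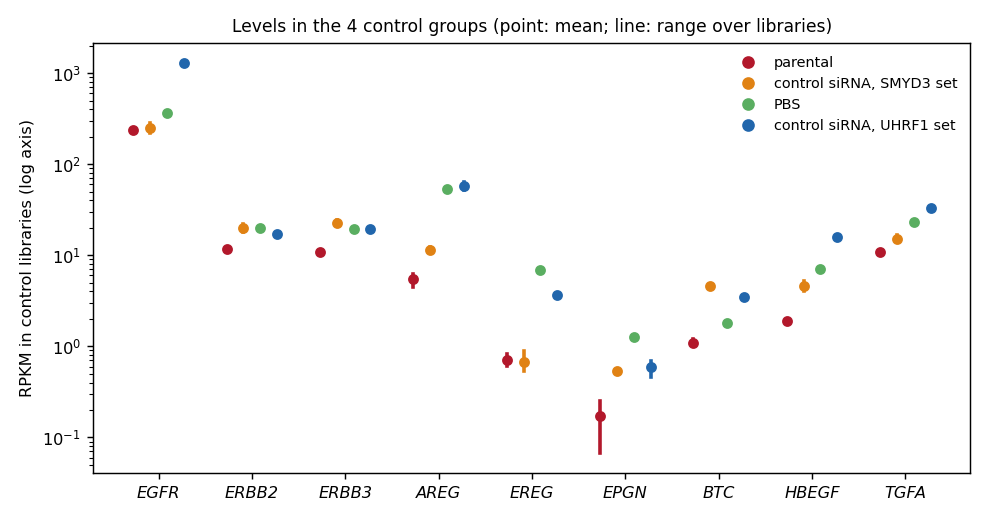
RPKM of the 9 members in the 4 control groups on a log axis, with points for means and lines for the range over libraries. EGFR is the highest in each group, and AREG spans 5.42 RPKM in the parental line to 57.8 in the control siRNA libraries of the UHRF1 set.

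The genes most like AREG over the 4 log2 fold changes, by root mean square difference among 12999 genes tested in all tables, were TLR4 (0.46), TNS4 (0.47), HYAL4 (0.51), ADAM19 (0.52) and CSF2 (0.57). TNS4, an adaptor of focal adhesions, stood at 3.55 in the clone, 0.08 with si1SMYD3, 0.37 with the ASO and -2.17 after siUHRF1. TLR4, a pattern recognition receptor, stood at 4.26, 0.08, 0.14 and -2.34 in the same order. For EGFR the nearest were DHX33 (0.03), GOT1 (0.05), KANK1 (0.07), ZNF426 (0.07) and TMEM245 (0.09). This likeness is over 4 values per gene and is given with no test.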

How the data were processed

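The 9 members, the other gene lists and the tests were chosen with earlier results of these data known. Counts per gene, whole numbers, are what the authors deposited for the SMYD3 siRNA, ASO and UHRF1 siRNA sets. For the knockout set they deposited a signal, gene counts divided by 1 factor per library. Dividing by the smallest step gave whole reads for 100% of its values within 0.01. In clone replicate 1 that step was 0.991, close to 1. The authors' exon lengths, deposited beside the counts of the ASO set, served for RPKM. The submitters' processing notes name hg38, bcl2fastq and Bowtie. Versions, counting tool and annotation: not given in the sources used here. Mitochondrial genes hold 0 reads in the ASO and UHRF1 tables. Lines without a symbol, 23588 in the SMYD3 siRNA table, held 0.849% to 0.917% of its reads and took GENCODE names by their Ensembl identifier, or kept that identifier.

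Each comparison was fitted on its own table in R 4.3.3. Counts were tested with edgeR 4.0.16 (filterByExpr, TMM, robust quasi-likelihood F-test, two-sided). The knockout table was tested with limma 3.58.1 (trend, robust) on log2(value + 1) for genes at 10 or more in at least 3 libraries. Its fold changes are on that scale, where the added 1 shrinks changes of low genes. For EPGN the value was 2.47, against 2.54 with 0.5 added. On recovered reads it was 2.30 in edgeR and 2.37 in DESeq2, so the main value was not the smaller one there. Benjamini-Hochberg adjustment ran over all genes tested, and a gene is called at an adjusted p below 0.05. Errors of fold changes are standard errors of the fit. Differences between depletions were contrasts over both sets, with edgeR or, for the knockout, limma on log2(CPM + 1). CPM in that limma fit is of the library total, without TMM factors. The scripts were tested on simulated data.

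Reads in genes per library were 24777802 to 47690298 in the knockout table (recovered reads), 32441991 to 54121262 with si1SMYD3, 30792923 to 32045158 with the ASO and 57588142 to 62921144 with siUHRF1. Named genes beside the members are, per comparison and list, the 3 called genes that changed most, EGF, ERBB4, chromosomal neighbours, and the 5 genes nearest to AREG and to EGFR. A gene that this rule names is not reported here. Alternatives were DESeq2 1.42.0, upper quartile factors, other pseudocounts and filters, edgeR on recovered reads, the replicate number as a block, each library left out, and mitochondrial genes left out. Promoters come from RefSeq (GRCh38.p14), gene positions from the authors' ASO table (hg38), and overlapping genes from GENCODE on GRCh38.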

Additional observations from a re-analysis of the deposited data

Results flagged for a closer look

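Members are listed here because their log2 fold changes differed between SMYD3 depletions in a test of the difference, at an adjusted p below 0.05. Between si1SMYD3 and ASO 081 the differences were 1.36 for EPGN, 1.07 for EREG, 0.70 for HBEGF, -0.34 for AREG, -0.45 for TGFA and -0.75 for BTC (edgeR). Between the knockout and si1SMYD3 they were 3.83 for AREG, 2.38 for EREG, 2.15 for TGFA, 2.13 for HBEGF, 0.89 for EGFR, 0.38 for BTC and 0.35 for ERBB3 (limma). Between the knockout and ASO 081 they were 3.46 for AREG, 3.25 for EREG, 2.76 for HBEGF, 1.66 for TGFA, 1.12 for EGFR, 0.83 for EPGN and 0.18 for ERBB3 (limma). In these contrasts 35.1%, 75.0% and 76.1% of all genes differed. The cause of these differences was not tested.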

How the results depend on the processing

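Of the members' log2 fold changes under the alternatives, 383 kept their direction and side of the threshold, 10 were no longer called, 8 became called and 4 changed sign. In the knockout the count of members called lower went from 0 to 2 with upper quartile factors, where ERBB3 turned to -0.15 and the median gene to -0.31. With si1SMYD3 the count lower went from 1 to 2 with upper quartile factors, with no filter on low counts and with the replicate block, and was 1 to 2 with 1 library left out. With the ASO it went from 1 to 0 in DESeq2 and to 3 with the replicate block, and was 0 to 2 with 1 library left out. The ASO call over all genes went from 3948 to 2290 in DESeq2 and 6773 with the block, and was 2738 to 4118 with 1 library left out, which leaves 1 sample in an arm that is assumed to vary like the other. With 1 library left out, values near 0 that were not called in the full set ran from -0.11 to 0.0014 for TGFA with si1SMYD3 (above 0 without control replicate 1), from -0.24 to 0.018 for EGFR with the ASO (above 0 without ASO replicate 1) and from -0.058 to 0.017 for TGFA with siUHRF1 (above 0 without siUHRF1 replicate 1). All 54 alternatives of the differences between depletions kept direction and call. EPGN between the knockout and si1SMYD3 moved from 0.05 to 0.69 with log2(CPM + 0.1) and passed in neither. With the longest transcript in place of merged exons, ERBB2 and ERBB3 stood above TGFA in PBS (42.1 and 29.7 RPKM against 26.6) and EPGN above BTC (1.90 against 1.70). ERBB2 then stood above ERBB3 in the control siRNA libraries of the SMYD3 set (42.1 against 34.8) and of the UHRF1 set (36.2 against 30.0). Neighbours that overlapped also changed places, ERBB3 with TGFA in the parental line (16.5 against 12.5) and HBEGF with BTC in the SMYD3 set (5.75 against 4.36).

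The labels name no shared day or batch. In the SMYD3 siRNA and ASO sets, control and treated libraries of the same replicate number carry adjacent library numbers. In the knockout and UHRF1 sets they do not. Deviations of same-numbered libraries correlated at 0.14, 0.27 and -0.02 in the knockout set and 0.20, 0.38 and -0.10 with si1SMYD3. They correlated at 0.39 with the ASO, which has 2 libraries per group, and at -0.03, -0.07 and 0.06 with siUHRF1. The main fits did not use the numbers as pairs, and whether libraries were paired in the SMYD3 siRNA and ASO sets is not known. With the block EGFR (-0.11, adjusted p = 0.0239) and ERBB2 (-0.13, adjusted p = 0.00768) were also called lower with the ASO, and ERBB2 with si1SMYD3 (-0.22, adjusted p = 0.0431). The cause of these changes was not tested. Depth limits EPGN in the knockout set, with 3 to 16 parental reads.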
